A study of Mus musculus with 6 samples.

Results

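The 57 genes described here encode proteins of the cytosolic ribosome, 35 of the large subunit and 22 of the small subunit. Membership was set by name. It took symbols made of Rpl or Rps and a number, with the usual suffixes, plus Rpsa, Rplp0, Rplp1 and Rplp2. Kinases, pseudogenes and the variants Rpl22l1, Rpl39l and Rpl3l were left out. The class and the gene lists set beside it were chosen with earlier results of these data known. By name 81 genes qualified. Of the 24 that were not measured, 17 lay only on probe sets shared with another gene, among them Rpl3, Rpl11, Rpl13a, Rpl39 and Rps27, and 7 had no probe set linked to them. The 57 genes are part of 19938 genes measured in the series, each through a single probe set that is linked to it alone.

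The study followed mouse blood progenitors into the T cell lineage on 6 Affymetrix gene arrays, 2 for each of 3 populations. All 3 populations descend from bone marrow cells transduced with NUP98-HOXB4, a fusion protein that keeps progenitors growing in culture, so no population is free of it. The HSC group, labelled as hematopoietic stem cells, was expanded in vitro in IL6 and SCF. The ProT group, labelled as committed T cells, was grown with IL7 and DLL4, a ligand of the Notch1 receptor. The DP group, labelled as double positive T cells, consisted of thymocytes that arose after such ProT cells were injected into a Rag2-/- mouse, a host that cannot make T or B cells of its own but keeps its thymic stroma and its macrophages. The sources used here do not give strain, age or the number of animals or cultures. Nothing says that the replicates came from separate cultures or mice, so the p-values measure only the spread between these arrays, which may be technical.

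Ribosomal proteins are made in matched amounts and join ribosomal RNA in the nucleolus. Their mRNAs begin with a 5′ terminal oligopyrimidine (TOP) tract, a C followed by a run of C and T (U in the RNA). Through this tract the kinase complex mTORC1 and the binding protein Larp1 set how strongly the mRNAs are translated and how long they are kept. In T cell development the large subunit protein Rpl22 is known to be needed for thymocytes of the αβ lineage to pass the early checkpoint before the double positive stage.

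The start regions of 12 members are printed here to show where runs of C and T lie around the annotated starts. The first 6 are the members that passed the test between DP and ProT and had a start in the promoter table. Rplp1, which also passed, had none there. The last 6 are examples with a long tract, chosen from the promoter table. Each stretch runs 5′ to 3′ on the gene's strand over 15 bases before the annotated start and the 15 bases that begin with it. Sequences are from RefSeq with build GRCm38.p6, and capitals mark every run of 5 or more pyrimidines that begins with C.
Rpl10l (chr12:66284387-66284416, minus strand): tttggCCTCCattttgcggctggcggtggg
Rpl14 (chr9:120571502-120571531, plus strand): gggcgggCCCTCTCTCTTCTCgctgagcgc
Rpl22 (chr4:152324421-152324450, plus strand): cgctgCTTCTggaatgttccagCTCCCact
Rpl36a (chrX:134585639-134585668, plus strand): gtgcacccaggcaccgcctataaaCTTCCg
Rps25 (chr9:44407699-44407728, plus strand): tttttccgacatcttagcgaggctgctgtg
Rps27l (chr9:66946071-66946100, plus strand): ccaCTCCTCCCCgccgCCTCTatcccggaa
Rpl28 (chr7:4792950-4792979, plus strand): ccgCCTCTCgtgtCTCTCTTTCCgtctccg
Rpl38 (chr11:114668565-114668594, plus strand): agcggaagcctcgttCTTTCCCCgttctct
Rplp2 (chr7:141447636-141447665, plus strand): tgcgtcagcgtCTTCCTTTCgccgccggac
Rps10 (chr17:27635230-27635259, minus strand): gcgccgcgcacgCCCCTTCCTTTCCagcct
Rps18 (chr17:33955651-33955680, minus strand): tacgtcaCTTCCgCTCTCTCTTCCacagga
Rps6 (chr4:86857353-86857382, minus strand): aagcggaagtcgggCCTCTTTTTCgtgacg
Rpl14 carried the longest run of the 6 printed genes that passed the test, and Rps25 carried none in this window. The Rps25 window opens with pyrimidines, so a run could be cut by its edge. The table gave 46 of the 57 members, with 54 start sites, and Rpl22 and Rps27l each had a second start that is not printed. A run of 5 or more was present at 30 of the 54 starts (55.6%), against 36.4% of 32851 start sites of all genes. A run of 8 or more was present at 17 starts (31.5%), against 9.26% of all. The mirrored motif, a run of A and G read on the same strand, was found at 25.9% of the members' starts and at 40.8% of all. The letters CCGGAAG, the core that ETS factors such as GABP recognise, stood on either strand within the whole window of 300 bases at 35.2% of the members' starts, against 8.86% of all. The windows of 300 bases had a median G and C content of 58.7% for members and 52.7% for all. Of the 8 starts of these 6 members, without Rplp1, 5 carried a run of 5 or more and 2 a run of 8 or more. The annotated start can lie some bases from the true one, and a missing run says only that these letters are not in this window. A run that lies wholly before the annotated start, as in Rpl10l, would not be in an mRNA that begins there. Differences between these windows are therefore not a measure of how the TOP tracts of the mRNAs differ.

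The labels were checked on fixed markers, with 7.17, the median of all gene values, as the reference level. All 6 progenitor markers, Kit and Cd34 among them, lay above it in HSC and ProT, all 7 markers of early T cells such as Cd3e and Il2ra lay above it in ProT, and all 7 markers of double positive thymocytes such as Cd4 and Cd8a lay above it in DP. However, 5 of the progenitor markers and 6 of the early T cell markers lay above it in DP too. The early T cell markers had 0 above it in HSC, and the double positive markers 0 in HSC and 1 in ProT. This level alone therefore does not set DP apart on the first lists. The HSC arrays also carried all 5 neutrophil and monocyte markers, Mpo at 13.13 and 13.13 and Elane at 13.16 and 13.27, and ProT all 4 mast cell markers, with Mcpt1 at 12.55 and 12.48. Of the neutrophil and monocyte markers 3 lay above the reference in ProT and 2 in DP, and of the mast cell markers 1 in HSC and 1 in DP. The summed log2 signal of the neutrophil and monocyte genes was 62.1 to 63.0 in HSC, 38.4 to 43.4 in ProT and 33.4 to 33.5 in DP, and that of the mast cell genes 25.6 on both HSC arrays, 45.9 to 46.2 in ProT and 22.9 to 23.1 in DP. In DP, 3 of 5 macrophage markers lay above the reference, C1qb highest at 9.56 and 9.37, while Mrc1 and Marco stayed below it. The summed log2 signal of the 5 macrophage genes was 37.0 to 37.1 in DP, against 29.7 to 29.9 in HSC and 29.7 to 30.7 in ProT. The same sum for 6 genes of stroma and thymic epithelium was 43.8 to 44.2 in DP, against 39.4 to 40.0 in HSC and 39.2 to 39.9 in ProT, with Krt8 at 9.51 and 9.55 in DP. For 4 B cell genes the sum was 25.4 to 25.6 in DP, 20.8 on both HSC arrays and 20.7 to 20.8 in ProT, with none of the 4 above the reference in any population. For 2 erythroid genes, Klf1 and Epor, none was above it either. These lists move with the populations compared, and their part in the ribosomal protein results was not tested.

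The 2 HSC arrays did not agree on ribosomal protein genes, and this bears on every comparison with HSC. HSC replicate 2 was lower than replicate 1 in 48 of 57 members, with a median difference of −0.33 on the log2 scale and a range from −1.18 to 0.22. A gap of at least 0.5 in that direction was found for 23 members (40.4%), against 2.82% of all genes. The median difference of all genes was 0.00. The 6 members more than 1 log2 unit lower were Rpl7, Rps3a1, Rps12, Rpl26, Rpl13 and Rps21. Rpl7 read 12.24 in HSC replicate 1 and 11.06 in replicate 2, against 12.33 and 12.29 in ProT and 11.86 and 11.87 in DP. Rps12 read 12.35 and 11.27 in HSC, 12.30 and 12.23 in ProT, and 11.58 and 11.48 in DP. HSC replicate 1 thus lay beside the ProT arrays for these genes, and replicate 2 lay below both DP arrays. At the other end, Rpl38, a large subunit protein known for its role in translating Hox mRNAs, was higher in replicate 2, at 12.91 against 12.69.

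In the other populations the replicates stood close together. The median difference of members was −0.05 in ProT and −0.03 in DP, and 0 of 57 members differed by 0.5 or more in either. The widest gaps were those of Rpl12 in ProT, 9.61 against 9.15, and of Rps19 in DP, 10.91 against 11.41. Other large protein families, picked after the values were seen, had medians nearer to 0 for the HSC pair. The median difference between the HSC replicates was −0.06 over 77 mitochondrial ribosomal protein genes, with 9 lower by at least 0.5, and −0.10 over 85 oxidative phosphorylation genes, with 16. It was −0.05 over 40 proteasome genes, with 4. Over 17 other genes with TOP mRNAs, such as elongation factors, it was −0.12, and 0 of them was lower by 0.5. Of all genes, 2.82% were lower by at least 0.5. The mitochondrial ribosomal, oxidative phosphorylation and proteasome counts lie above that share, so lower values in HSC replicate 2 were not confined to the members.

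**Figure D1:**
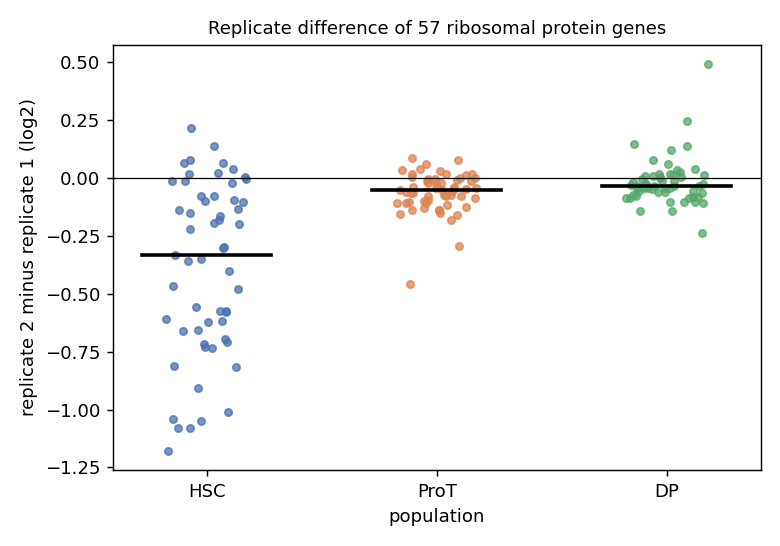
Difference between the replicates of each population for the 57 ribosomal protein genes. The vertical axis is replicate 2 minus replicate 1 in log2 units, each point is a gene and the bar is the median; the HSC points spread from −1.18 to 0.22 with a median of −0.33, while the medians are −0.05 in ProT and −0.03 in DP.

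The comparison of DP with ProT asks what changed as the cultured pro-T cells matured in the thymus, and it uses neither HSC array for its means. Ribosomal protein genes were lower in DP in nearly the whole class. Both DP arrays lay below both ProT arrays in 48 of 57 members (84.2%), where 32.9% of all genes did so, and the difference was negative in 52 members. The median member was lower by 0.31 (a log2 difference of −0.31, or 19.5% lower on the linear scale), while the median of all genes was 0.02. The large subunit, with a median of −0.31 over 35 genes, and the small subunit, with −0.35 over 22, stood at similar values. Both DP arrays lay above both ProT arrays in 4 members, where 36.1% of all genes did so. Per the labels' protocol every sample was labelled from 2 ug of total RNA, so the values carry no measure of RNA per cell, and in these bulk samples fewer cells of a type and less RNA per cell cannot be told apart.

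Gene by gene, 7 of the 57 members (12.3%) passed the test as lower in DP and 0 as higher (limma with Benjamini-Hochberg adjustment over all genes, adjusted p below 0.05). The share of all genes called lower was 18.1% and the share called higher 14.5%, so members were called no more often than genes at large. At an unadjusted p below 0.05, 19 were lower and 0 higher, against 4349 lower and 3870 higher of all 19938 genes. This test pools the spread of all 3 replicate pairs, the HSC pair included. Fitted on the 4 ProT and DP arrays alone, with the same differences, 33 members (57.9%) were called lower and 0 higher, against 20.7% and 16.5% of all genes. The 33 include all 7.

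Rps27l, a small subunit variant close to Rps27 that is known as a target of p53, had the largest fall. It read 12.26 and 11.45 in HSC, 12.11 and 12.002 in ProT, and 11.16 and 11.12 in DP. The DP arrays were the lowest of all 6, and the gap to ProT was −0.92 ± 0.25 (SE, n = 2 arrays per group, adjusted p = 0.0367), or 47.0% lower.

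Rpl22, the protein tied to αβ T cell development, also fell. Its signals were 10.22 and 9.65 in HSC, 10.19 and 10.20 in ProT, and 9.36 and 9.50 in DP. ProT and HSC replicate 1 matched, HSC replicate 2 was close to DP, and DP differed from ProT by −0.76 ± 0.19 (adjusted p = 0.0255). Its paralog Rpl22l1 shares its probe set with another gene and is not analysed here.

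Rpl14, a large subunit protein whose start carries the long tract printed above, fell in the same way. It read 9.53 and 9.18 in HSC, 9.53 and 9.61 in ProT, and 8.76 and 9.01 in DP. The difference between DP and ProT was −0.69 ± 0.14 (adjusted p = 0.0146), with both DP arrays under the other 4.

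Rpl36a, a large subunit protein near the site where spent tRNA leaves, was the steadiest of the 7. It read 12.88 and 12.88 in HSC, 12.92 and 12.86 in ProT, and 12.50 and 12.44 in DP. The HSC values lay within the range of the ProT values, and DP stood −0.42 ± 0.07 from ProT (adjusted p = 0.00688) and −0.41 ± 0.07 from HSC (adjusted p = 0.00656).

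Rps25, a small subunit protein used by some viral internal ribosome entry sites, had signals of 12.39 and 12.25 in HSC, 12.43 and 12.35 in ProT, and 12.05 and 11.96 in DP. Both DP arrays were the lowest, with −0.38 ± 0.08 against ProT (adjusted p = 0.0182) and −0.31 ± 0.08 against HSC (adjusted p = 0.034). Rplp1, an acidic protein of the stalk that recruits elongation factors, read 13.69 and 13.59 in HSC, 13.72 and 13.67 in ProT, and 13.46 and 13.42 in DP. The difference was small, −0.26 ± 0.08, and just passed (adjusted p = 0.0497).

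Rpl10l, a retrogene copy of Rpl10 known from the testis, passed as well, at −0.41 ± 0.08 (adjusted p = 0.0117). On every array its signal was under the overall gene median of 7.17, at 6.51 and 6.49 in HSC, 6.61 and 6.69 in ProT, and 6.18 and 6.30 in DP. No detection call is part of the values used, so it was not established that this probe set reads Rpl10l transcript.

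**Figure D2:**
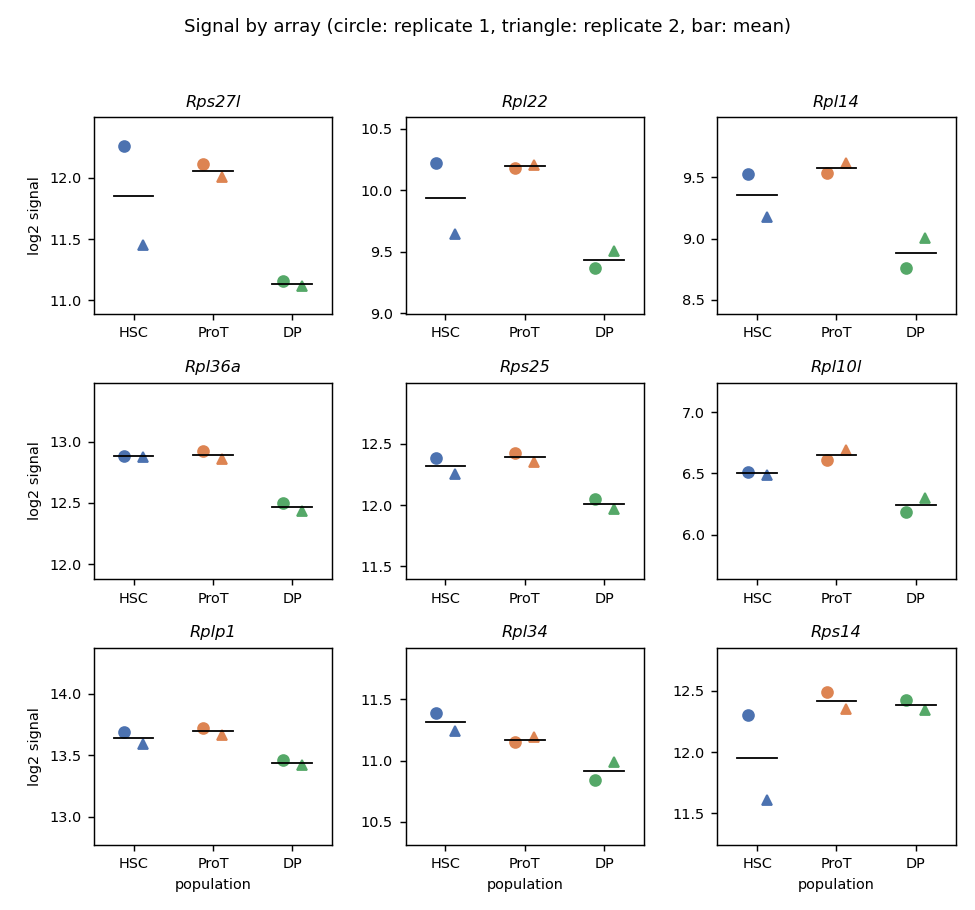
Log2 signal of 9 ribosomal protein genes on the 6 arrays by population; circles are replicate 1, triangles replicate 2 and bars the means, and each panel has its own range, which does not start at 0. In the 8 genes other than Rps14 the DP points lie below both ProT points, whereas for Rps14 the DP points at 12.42 and 12.35 overlap the ProT points and HSC replicate 2 is low at 11.61.

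These calls rested on few arrays. The members' median was −0.34 without DP replicate 1 and −0.29 without DP replicate 2. It was −0.28 without ProT replicate 1 and −0.36 without ProT replicate 2. In each of these 4 fits most of the 7 lost their call, and the lone array is assumed to vary like the other groups. Leaving out either HSC array called the same members as the fit on the ProT and DP arrays alone, since the spread then comes from the ProT and DP pairs.

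Several members had differences as large as those of the 7 but did not pass in the 6-array test. Rpl13, a large subunit protein picked here after its values were seen, read 11.60 and 10.55 in HSC, 11.74 and 11.58 in ProT, and 10.90 and 10.75 in DP. Its difference between DP and ProT was −0.84 ± 0.32 (adjusted p = 0.104), and with the 4 arrays alone the SE was 0.10 (adjusted p = 0.00201). Rps19, the protein most often mutated in Diamond-Blackfan anaemia, an inherited failure of red cell production, read 11.87 and 11.25 in HSC, 11.95 and 11.84 in ProT, and 10.91 and 11.41 in DP, a difference of −0.73 ± 0.24 (adjusted p = 0.0693; 0.0241 with the 4 arrays). In HSC the replicates of Rpl13 were 1.04 apart and those of Rps19 0.62 apart.

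Rpl5, which with Rpl11 and the 5S RNA forms the particle that binds Mdm2, read 12.62 and 11.90 in HSC, 12.72 and 12.67 in ProT, and 12.29 and 12.31 in DP. It differed by −0.39 ± 0.22 (adjusted p = 0.253; 0.00941 with the 4 arrays). Rpsa, the small subunit protein also known as the laminin receptor, differed by −0.44 ± 0.23 (adjusted p = 0.213; 0.0094 with the 4 arrays), from 12.91 and 12.78 in ProT to 12.40 and 12.41 in DP. Rps4x, the X-linked small subunit protein, differed by −0.31 ± 0.11 (adjusted p = 0.0929; 0.0238 with the 4 arrays). In all 3 both DP arrays lay below both ProT arrays.

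Other members had differences near 0 or on the positive side. Rps6, the protein that S6 kinases phosphorylate, read 13.43 and 13.51 in HSC, 13.46 and 13.45 in ProT, and 13.57 and 13.54 in DP, a difference of 0.10 ± 0.07 (adjusted p = 0.389). Rpl41, the smallest ribosomal protein, was at 13.15 and 13.12 in ProT and at 13.24 and 13.30 in DP (0.14 ± 0.08, adjusted p = 0.268). Rps6, Rpl41, Rpl19 and Rps15 were the 4 members with both DP arrays above both ProT arrays, and none passed. Rps14, a small subunit protein whose loss impairs red cell formation, read 12.30 and 11.61 in HSC, 12.49 and 12.35 in ProT, and 12.42 and 12.35 in DP. Its DP and ProT arrays overlapped, as did those of Rpl21, Rpl28, Rpl29 and Rps10. Of the genes named by rule, Rpl10, mutated in some T cell leukaemias, differed by −0.14 ± 0.07 (adjusted p = 0.21), and Rpl38 by −0.22 ± 0.10 (adjusted p = 0.155).

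**Figure D3:**
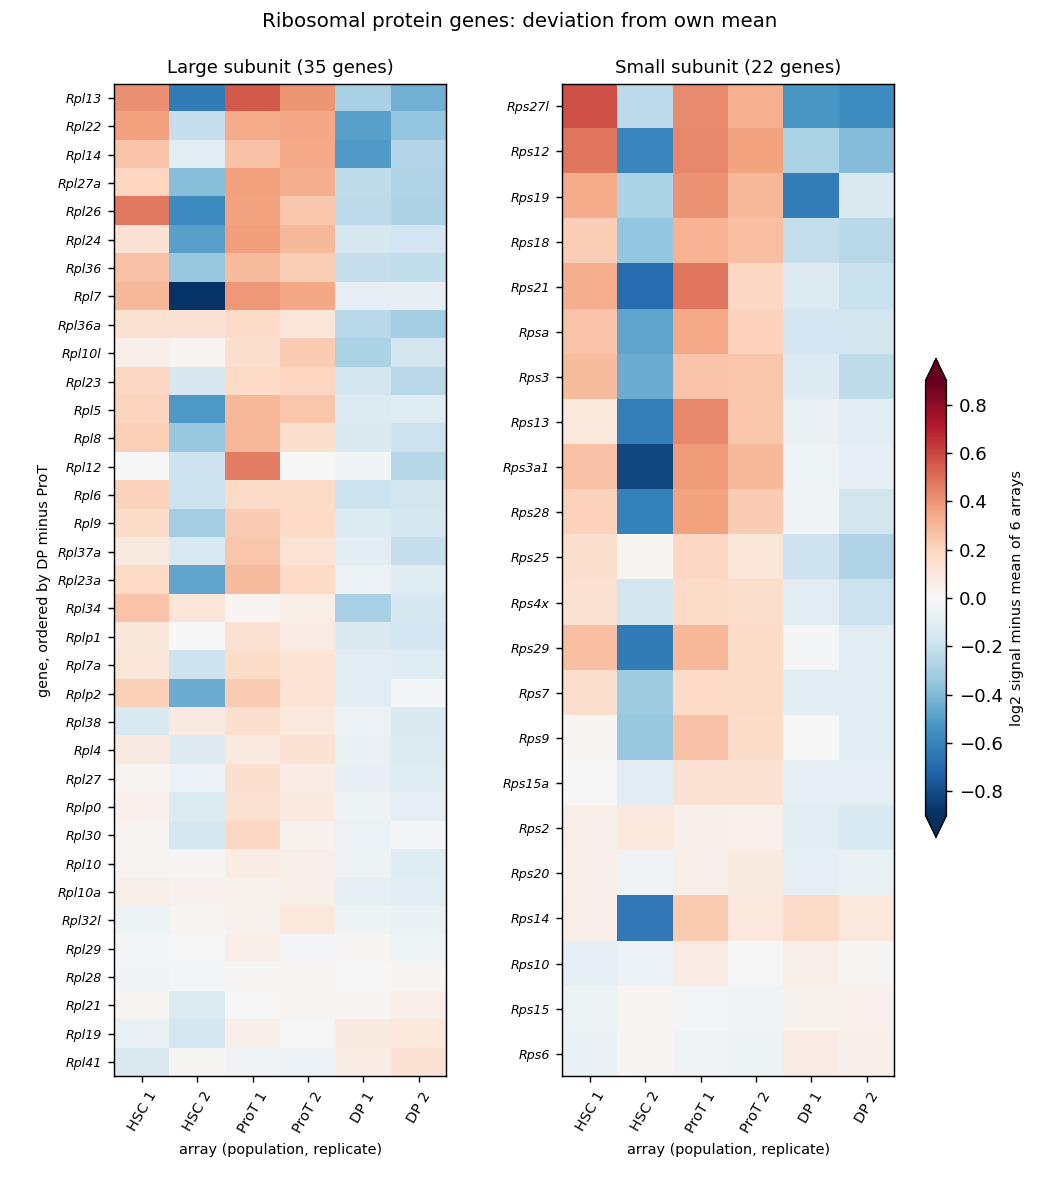
Log2 signal of each of the 57 ribosomal protein genes on the 6 arrays, shown as the deviation from the gene's mean over all arrays. Most genes are low in both DP arrays, high in both ProT arrays and in HSC replicate 1, and low in HSC replicate 2; the median deviation over genes is 0.14 and −0.19 on the HSC arrays, 0.19 and 0.15 on the ProT arrays, and −0.10 and −0.13 on the DP arrays.

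By place in the ribosome, the groups gave the following counts in DP against ProT. The stalk (Rplp0, Rplp1, Rplp2 and Rpl12) had 1 of 4 lower, Rplp1, with a median of −0.25. Rplp0 differed by −0.18 ± 0.09 (adjusted p = 0.18), and Rplp2, whose probe set lay near the median of all gene values, by −0.23 ± 0.21 (adjusted p = 0.476). Around the exit of the peptide tunnel 1 of 4 measured proteins was lower, Rpl22, with a median of −0.44. The mRNA exit side of the small subunit had 0 of 4 called and a median of −0.41, and the mRNA entry and decoding side 0 of 4 and −0.21. Of 14 genes mutated in Diamond-Blackfan anaemia 8 were measured, with 0 called and a median of −0.34. For these lists the comparison is all genes, with a median of 0.02 and 18.1% called lower. With so few genes per list, the counts do not set any place in the ribosome apart. The median of each list stood on the same side of 0.02 as that of the class.

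The size of the difference went with signal level. For the 21 members with a mean under 12 the median difference between DP and ProT was −0.42, from −0.92 to −0.12, and both DP arrays were below both ProT arrays in all 21. For the 22 members between 12 and 13 the median was −0.34, with 20 such genes. For the 14 members at 13 or above it was −0.07, from −0.35 to 0.14, with 7 such genes. The gap between the HSC replicates went the same way, with medians of −0.66, −0.41 and −0.01 in the 3 ranges. The highest value of the whole table was 14.38, and whether the bright probe sets respond less was not tested.

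**Figure D4:**
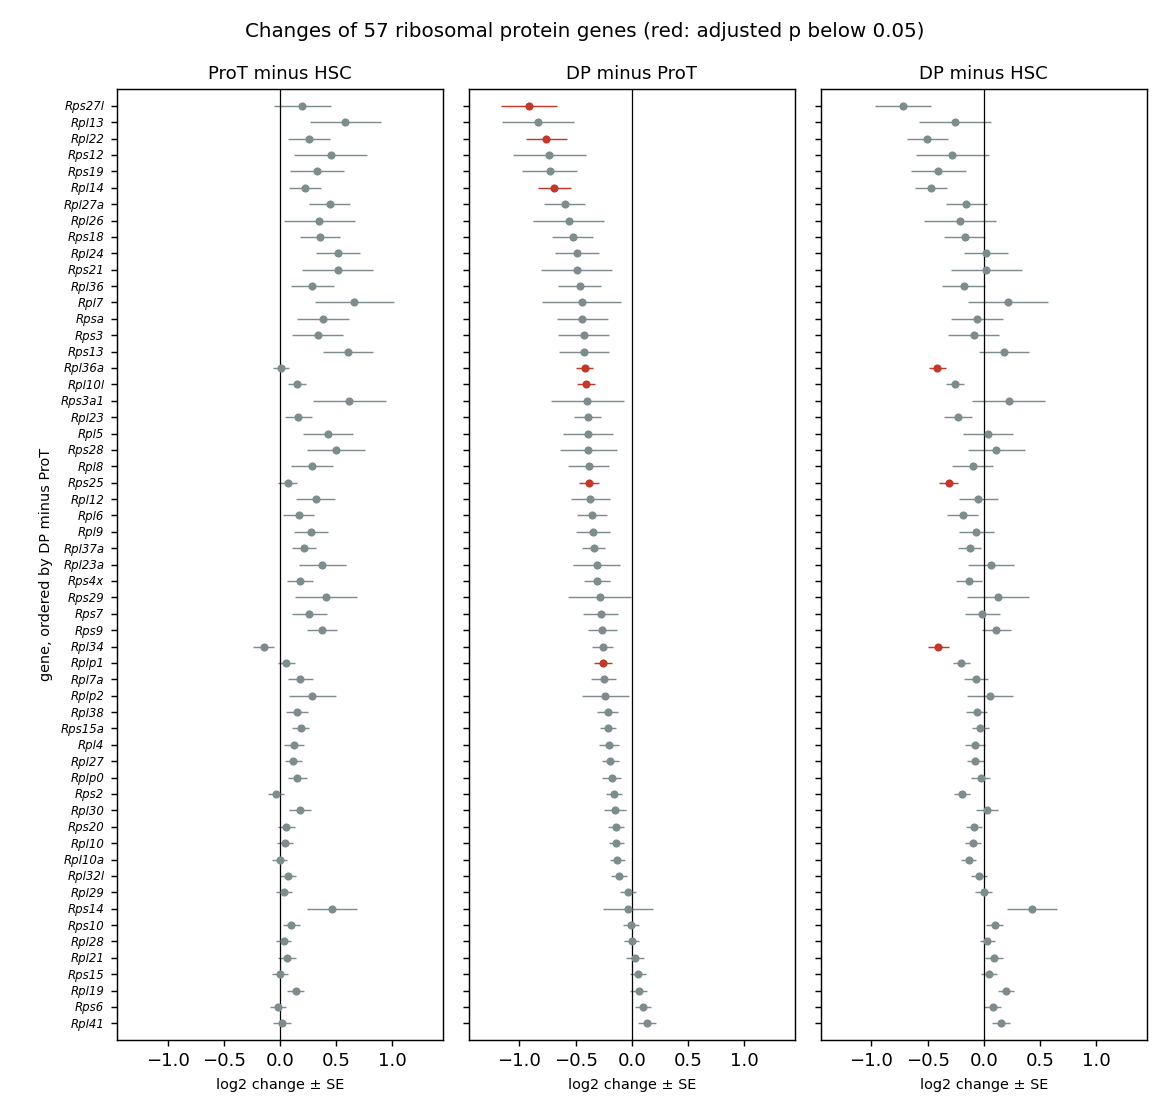
Log2 change of each of the 57 ribosomal protein genes, ordered by DP minus ProT, in the 3 comparisons of the populations; points are differences, bars ± 1 SE, and red marks an adjusted p below 0.05 (limma). The medians are 0.20 for ProT minus HSC, −0.31 for DP minus ProT and −0.07 for DP minus HSC, with 0, 7 and 3 genes in red.

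Most members had further probe sets, which gave the same picture. The 57 genes were linked to 212 single-gene probe sets, and 38 genes had more than 1, up to 14 for Rps12. DP was below ProT on 187 of the 212, with a median of −0.35. Among the 38 genes, 32 were lower on every probe set, Rpl41 and Rps6 were higher on every one, and 4 disagreed. The 4 were Rpl19 with 5 of 7 lower, Rpl21 with 2 of 9, Rpl28 with 1 of 5 and Rps15 with 2 of 3. Ribosomal protein genes have many near-identical processed copies in the genome, so different probe sets of a gene may read the same transcripts and do not count as independent. Some had identical values on every array, such as the 3 of Rpl41 and several of Rps12. The counts of probe sets therefore repeat some readings.

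The direction held under other scalings of the arrays. The members' median was −0.27 after quantile normalization, −0.49 after centring each array on its median and −0.21 after cyclic loess, where the median of all genes was −0.08, −0.16 and −0.05. Median centring moved the balance of all calls, from 2899 higher and 3607 lower to 1908 and 5468, and it called 26 members lower. Under cyclic loess 5 members (8.77%) were lower and 1 (1.75%), Rps6, was higher, against 3847 lower and 2628 higher of all 19938 genes.

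The comparison of ProT with HSC asks what changed when Notch signalling and IL7 replaced IL6 and SCF. No member passed, 0 higher and 0 lower, while 14.7% of all genes were called, 7.85% higher and 6.9% lower (limma, Benjamini-Hochberg). At an unadjusted p below 0.05, 4 members were higher and 0 lower, against 2576 higher and 2701 lower of all 19938 genes. The median difference was 0.20 against −0.01 for all genes, and both ProT arrays lay above both HSC arrays in 29 members (50.9%), where 25.1% of all genes did so. They lay below both in 2 members, where 27% did so.

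This comparison turned on which HSC array was used. In a fit with a lone HSC array, that array is assumed to vary like the ProT and DP arrays. The calls of such a fit leave out the gap between the HSC replicates. Without HSC replicate 1, 26 members (45.6%) were called higher in ProT, against 9.97% of all genes, with a median of 0.37. With both HSC arrays but without DP in the fit, 0 were called in either direction, against 5.08% of all genes called higher and 3.91% called lower. Without HSC replicate 2, 0 were called in either direction, against 6.74% and 5.97% of all genes, with a median of 0.04. Rpl7 had the largest difference, 0.66 ± 0.35 (adjusted p = 0.321), and its HSC arrays were 1.18 apart. Rps3a1, a core protein of the small subunit, followed at 0.62 ± 0.33 (adjusted p = 0.316), from 9.81 and 8.73 in HSC to 9.93 and 9.84 in ProT. For both genes HSC replicate 1 lay just below the nearer ProT array.

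The comparison of DP with HSC spans the whole path. Here 0 members were higher and 3 lower, Rpl34, Rpl36a and Rps25, against 16% of all genes called higher and 18.8% called lower. At an unadjusted p below 0.05, 1 was higher and 9 were lower, against 4100 higher and 4425 lower of all 19938 genes. Rps25 lost its call with quantile normalization, with cyclic loess, with the 4 HSC and DP arrays alone (adjusted p = 0.0504) and on leaving out any array other than HSC replicate 2. Without DP replicate 1 the 1 call was Rpl36a, and without DP replicate 2 it was Rpl34. The median difference was −0.07, against 0.02 for all genes, and its sign turned with cyclic loess (0.035). Rpl34, a large subunit protein, was the one of these 3 whose mean was lower at each step. It read 11.39 and 11.24 in HSC, 11.15 and 11.19 in ProT, and 10.84 and 10.99 in DP, with −0.40 ± 0.09 between DP and HSC (adjusted p = 0.018) and −0.26 ± 0.09 between DP and ProT (adjusted p = 0.0841). Both DP arrays lay below both HSC arrays in 15 members (26.3%) and above in 8 (14%), where the shares of all genes were 32.1% and 35.8%. Neither share exceeded that of all genes.

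Again the 2 HSC arrays gave different accounts. The calls with a lone HSC array again leave out the gap between the HSC replicates. Without HSC replicate 1, 11 members were higher in DP and 1 lower, with a median of 0.080, against 15.3% and 19.4% of all genes. Without HSC replicate 2, 0 were higher and 20 (35.1%) lower, with a median of −0.27, against 14.6% and 18.7% of all genes. Taken singly, HSC replicate 1 lay above both DP arrays in 47 of 57 members and its median distance from the ProT mean was −0.04. It lay below both ProT arrays in 33 members and above both in 8. HSC replicate 2 lay below both ProT arrays in 49 members, below both DP arrays in 35 and above both in 16. Rpl5 went in opposite directions, with a difference of 0.40 without replicate 1 and of −0.32 without replicate 2. Its HSC replicates differed by −0.72 (replicate 2 minus replicate 1). Rps14 had the largest positive difference with all arrays, 0.43 ± 0.22 (adjusted p = 0.202). The comparisons share the ProT, DP and HSC arrays pairwise, so their values are not independent of each other. Set against the midpoint of HSC and DP, ProT was higher in 1 member, Rpl10l by 0.28 ± 0.07 (adjusted p = 0.0393), and lower in 0, where 11.8% and 9.17% of all genes were called. The median was 0.27.

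Other genes whose mRNAs carry TOP tracts were lower in DP than in ProT as well. This list and those that follow were chosen with earlier results of these data known, so their shares are not independent tests. Of 17 measured, 9 were called lower (52.9%) and 0 higher, with a median of −0.32, against 18.1% of all genes called lower and 14.5% higher. Eef1b2, a subunit of the factor that recharges elongation factor 1A, read 12.67 and 12.63 in ProT and 12.001 and 11.96 in DP (−0.67 ± 0.14, adjusted p = 0.0156). Npm1, a nucleolar chaperone of ribosome assembly, fell by 0.57 ± 0.15 (adjusted p = 0.0321), and Pabpc1, the poly(A) binding protein, fell by 0.39 ± 0.07 (adjusted p = 0.00791). Eef1a1, the elongation factor itself, differed by −0.08 ± 0.07 (adjusted p = 0.453). Fau, whose product is cleaved into the ribosomal protein eS30, differed by −0.13 ± 0.09 (adjusted p = 0.374). Against HSC, 7 of the 17 were lower in DP (41.2%, against 18.8% of all genes) and 1 higher (5.88%, against 16%), Tpt1, by 0.38 ± 0.09 (adjusted p = 0.0239). Between ProT and HSC 1 was lower, Nap1l1, a histone chaperone, which fell by 0.32 ± 0.08 (adjusted p = 0.0482), and 0 were higher.

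Of 13 measured genes of the mTORC1 pathway and TOP control, 4 were lower (30.8%) and 1 higher (7.69%) in DP than in ProT, against 18.1% and 14.5% of all genes. The median of the list was −0.08. Larp1, which binds TOP mRNAs, read 12.03 and 12.26 in HSC, 12.37 and 12.23 in ProT, and 11.34 and 11.22 in DP. DP stood −1.02 ± 0.11 from ProT (adjusted p = 0.00115), far outside the replicate spread. Eif4ebp1, the inhibitor of cap-dependent initiation that mTORC1 switches off, fell by 1.56 ± 0.13 (adjusted p = 0.000468), and the cap-binding protein Eif4e fell by 0.46 ± 0.07 (adjusted p = 0.00538). Pdcd4, a repressor of the helicase Eif4a that S6 kinases mark for destruction, rose by 0.52 ± 0.09 (adjusted p = 0.0071). Mtor itself read 9.87 and 9.57 in ProT and 9.73 and 9.70 in DP, with overlapping arrays (−0.01 ± 0.11, adjusted p = 0.964).

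Dedicated chaperones that escort new ribosomal proteins, or act in late assembly of the small subunit, were lower in DP than in ProT in 5 of 9 genes (55.6%) and higher in 0, with a median of −0.46, against 18.1% and 14.5% of all genes. Grwd1, the escort of Rpl3, read 9.37 and 8.51 in ProT and 8.04 and 7.80 in DP (−1.02 ± 0.28, adjusted p = 0.0362). Nob1, the nuclease that finishes the small subunit RNA, fell by 0.79 ± 0.10 (adjusted p = 0.00196), and Ltv1 fell by 0.77 ± 0.20 (adjusted p = 0.0315). Heatr3, which brings Rpl5 into the nucleus, fell by 0.74 ± 0.17 (adjusted p = 0.0195). Tsr2, the escort of Rps26, was the fifth, at −0.33 ± 0.10 (adjusted p = 0.045). Between ProT and HSC 0 of these 9 passed.

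Among 9 candidate regulators of ribosomal protein gene transcription, 2 were lower and 2 higher in DP than in ProT, 22.2% each way against 18.1% and 14.5% of all genes, with a median of 0.14. The counts are near the background. Myc, known to drive ribosome production, read 12.61 and 12.19 in HSC, 12.34 and 12.40 in ProT, and 11.08 and 11.005 in DP (−1.33 ± 0.14 between DP and ProT, adjusted p = 0.00116). Mycn was high in ProT alone, at 11.39 and 11.22, against 8.22 and 6.96 in HSC and 7.49 and 7.29 in DP. It rose by 3.71 ± 0.38 from HSC to ProT (adjusted p = 0.00212) and fell by 3.92 ± 0.38 from ProT to DP (adjusted p = 0.000838). Sp1 rose by 0.45 ± 0.08 (adjusted p = 0.00711) and Tbpl1 by 0.30 ± 0.08 (adjusted p = 0.0286). Gabpa, which binds the ETS core searched for in the promoters, differed by 0.27 ± 0.12 (adjusted p = 0.142), and Yy1 by 0.10 ± 0.16 (adjusted p = 0.706).

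Since Rps27l is a p53 target, 10 other genes known as p53 targets were set beside it. This list too was chosen with earlier results of these data known, so its share is not an independent test. In DP against ProT 5 were lower (50%) and 1 higher (10%), with a median of −0.44, against 18.1% and 14.5% of all genes. Sesn2, an inhibitor of mTORC1, fell by 1.79 ± 0.12 (adjusted p = 0.000194), Zmat3 fell by 1.16 ± 0.15 (adjusted p = 0.00252) and Phlda3 fell by 1.13 ± 0.13 (adjusted p = 0.00152). Trp53inp1 went the other way, from 11.32 and 11.75 to 13.17 and 13.15 (1.62 ± 0.25, adjusted p = 0.00477). Mdm2 differed by 0.27 ± 0.11 (adjusted p = 0.107) and Bbc3 by −0.03 ± 0.09 (adjusted p = 0.862).

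Of the ribosomal protein variants, 6 were measured, and 3 were lower in DP than in ProT (50%, against 18.1% of all genes): the members Rps27l and Rpl10l, and Rpl7l1, a factor close to Rpl7, which read 11.66 and 11.52 in ProT and 11.18 and 11.18 in DP (−0.41 ± 0.08, adjusted p = 0.0112). Rpl3l, the variant of striated muscle, lay between 5.57 and 5.81 on the 6 arrays and Rpl39l, a variant of the testis, between 4.51 and 4.76. Rps4l, a pseudogene in RefSeq, lay between 6.96 and 7.20. These 3 stayed near or below the median of all gene values, and none passed in any comparison of the populations. Rpl32l, a retrocopy named by the rule, read 9.73 and 9.79 in ProT and 9.65 and 9.63 in DP (−0.12 ± 0.07, adjusted p = 0.299).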

How the data were processed

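Total RNA of 6 samples was labelled and hybridized to Affymetrix arrays. The values used are the log2 signals deposited by the authors for 35556 probe sets, made with RMA and Partek per the submitters' processing notes; the sources used here name no versions, array build or detection calls. A gene was represented by its single-gene probe set with the highest mean (21789 single-gene probe sets, 19938 genes); 1621 probe sets with several genes and 12146 with none were left out. The limits on precision are the 2 arrays per population. All 6 arrays were fitted in limma 3.58.1 (R 4.3.3) with eBayes (residual degrees of freedom 3, prior 2.83), no replicate block and no filter on signal, and p-values were adjusted by Benjamini-Hochberg over all genes; a gene is called below 0.05. The fit was also run on simulated data with noise drawn independently for each gene. A shift shared by the members, as between the HSC replicates, was not part of that simulation. Python 3.11.15 with pandas 2.3.3 prepared the tables and searched the promoters. Members and lists were chosen with earlier results of these data known. Named are up to 6 called members per direction and comparison, a set of variants and disease genes, and up to 4 called and 2 other genes of each list, with exceptions stated. Alternatives were other scalings, probe set rules, priors, thresholds, a filter on dim genes, a replicate block, and leaving out arrays; showing counts without HSC replicate 2 beside each result was chosen after seeing the data.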

Additional observations from a re-analysis of the deposited data

How the results depend on the processing

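The members' medians kept their sign under every alternative in ProT against HSC and DP against ProT, but not in DP against HSC. In DP against ProT, with 7 members lower, the count was 1 at an adjusted p below 0.01, 26 with median centring, 11 with a trended robust prior, 33 with the 4 arrays alone and 1 to 33 on leaving out single arrays, and cyclic loess called 1 member higher. Of all 19938 genes, 3607 were lower in DP than in ProT in the main fit and 2396 at an adjusted p below 0.01. Median centring called 5468 lower, the trended robust prior 3593 and the 4 arrays alone 4126. Cyclic loess called 3847 lower and 2628 higher. The members' median, −0.31, was −0.27 with quantile normalization, −0.49 with median centring and −0.21 with cyclic loess. It was −0.38 with the most variable probe set and −0.36 to −0.28 on leaving out single arrays. In DP against HSC, with 3 lower, the count was 1 at an adjusted p below 0.01, 11 with median centring, 5 each with the filter on dim genes, the mean of probe sets, the most variable probe set and the trended robust prior, and 1 to 20 on leaving out single arrays; the count higher was 2 with cyclic loess and 0 to 11 on leaving out arrays, and the median, −0.07, ran from −0.27 to 0.080 on leaving out arrays and was −0.23 with median centring, −0.0017 with quantile normalization and 0.035 with cyclic loess. In ProT against HSC the count higher was 0 to 26 on leaving out single arrays. Of all 19938 genes, 3758 were lower in DP than in HSC in the main fit and 2720 at an adjusted p below 0.01. Median centring called 5342 lower, the mean of probe sets 3760, the most variable probe set 3783 and the trended robust prior 3778. The filter on dim genes called 3573 of 10774 lower, and cyclic loess called 3987 lower and 2963 higher. For median centring the change in all genes' balance in DP against ProT is given above. For the other settings the cause was not tested beyond the arrays named.

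Replicate numbers were not treated as a pairing of the samples. Over all genes, deviations of same-numbered arrays correlated at 0.06 (HSC and ProT), −0.04 (ProT and DP) and −0.02 (HSC and DP). With 2 arrays per population this does not decide whether same-numbered arrays shared a preparation. Among the 57 members, replicate 2 was lower than replicate 1 in 48 in HSC, 45 in ProT and 38 in DP. With the replicate block 0 members were called in ProT against HSC, 9 (15.8%) were lower in DP than ProT and 3 (5.26%) lower than HSC. Of all 19938 genes the block called 1534 higher and 1311 lower in ProT against HSC. It called 3546 lower in DP than in ProT and 3697 lower in DP than in HSC. In DP against ProT, Rplp1 lost its call with the block (adjusted p = 0.066), with cyclic loess and with the filter on dim genes, and Rps27l with cyclic loess (adjusted p = 0.055); the filter removed Rpl10l, and Rpl36a alone passed 0.01. With 2 arrays per population and no detection calls, small changes and dim genes such as Rpl10l are poorly resolved.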
